A study of Sus scrofa with 12 samples.

Results

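Chemokines, interleukins and their receptors were followed in testis RNA of HZ and LC boars. The members were the rows of the coding-gene table whose symbol starts with CCL, CCR, CXCL, CXCR or IL and goes on with a digit, and 121 of 21674 rows met this rule. The rule reads names only, so it also took in IL4I1, which encodes a secreted L-amino acid oxidase, and the lambda interferons listed as IL28B and IL29. Testes of Hezuo (HZ) boars, an early-maturing plateau breed, and of Landrace (LC) boars were taken by castration and sequenced as whole tissue. Ha were HZ boars at 30 days of age, Hb were HZ boars at 120 days, La were LC boars at 30 days and Lb were LC boars at 120 days. Each group had 3 libraries, each from a separate boar. The estimated counts summed to between 17165519 (Hb3) and 23758931 (Ha1) per library. Levels are given as FPKM (fragments scaled to transcript length and to mapped fragments), which can be compared between genes because it is per length. Changes are given as log2 fold changes of the second group over the first, from edgeR on the estimated counts, with ± the standard error.

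Chemokines are small secreted proteins that direct cell movement through G protein-coupled receptors, with CC chemokines acting mainly on CCR receptors and CXC chemokines on CXCR receptors. Interleukins act through multi-chain receptors that share signalling subunits, such as the common gamma chain (IL2RG) and the IL-6 signal transducer (IL6ST), and most of these signal through JAK kinases and STAT factors, whereas receptors of the IL-1 and IL-17 families signal to NF-kB. In the testis these genes are known from resident macrophages and other interstitial cells, from CXCL12 and its receptor CXCR4 in the niche of germline stem cells, and from the limited immune reactivity of the organ.

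Most members were low in the testis. A mean of at least 1 FPKM over the 12 libraries was reached by 41 of the 121 members (33.9%) and by 60.3% of all coding genes, and 44 members were under 0.1 FPKM. At most 3 counts in every library were found for 16 members, and 6 of these (CCL3L1, IL17RC, IL21, IL24, IL4 and IL9) were listed at 0 in all 12 libraries. The 7 members with a mean of at least 10 FPKM were IL4I1 (54.5), CCL21 (52.0), IL6ST (26.5), CXCL12 (26.0), CXCL10 (19.1), IL18 (17.1) and IL13RA1 (14.6). The next 8 by mean FPKM were CXCR4 (7.49), IL11RA and IL10RB (7.14 each), CXCL16 (7.03), IL1R1 (5.52), IL27RA (5.19), IL4R (4.66) and CCL2 (4.63). Among interleukins proper, apart from IL18 (17.1), the highest means were those of IL17D (4.56), IL33 (3.57) and IL34 (2.65). Several widely studied cytokines were low, and the highest value in any library was 0.42 FPKM for IL1B, 0.30 for IL1A, 0.17 for IL6, 0.20 for CXCL8 and 0.17 for IL10. IL1B2 has a sequence close to that of IL1B, and reads may have been split between them.

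At least 1 of the 4 comparisons could test 75 of the 121 members, and the other 46 were too low for all of them. After a filter on low counts, Ha vs Hb could test 63 members with age, La vs Lb 67. Between breeds, Ha vs La tested 69 members at 30 days, and Hb vs Lb 57 at 120 days. A member was called when its adjusted p was below 0.05 and its log2 fold change was beyond 1 in either direction. In Ha vs Hb, 32 of the 63 tested members were called (50.8%), against 51.4% of all 16548 genes tested, so the share as such was near that of all genes. By direction, 6 members were upregulated at 120 days (9.52%, against 28.2% of all genes) and 26 downregulated (41.3%, against 23.2%). Neither share was tested against that of all genes. In La vs Lb, 43 of the 67 tested members were called (64.2%), against 47.6% of all 16637 genes tested, with 7 upregulated (10.4%, against 27.5%) and 36 downregulated (53.7%, against 20.1%). The median log2 fold change of the tested members was -0.89 in Ha vs Hb, where that of all genes was -0.02, and -1.29 in La vs Lb, where that of all genes was 0.01. These age comparisons share no library, and 60 members were tested in both. Of these, 24 were called in both, 4 of them upregulated in both breeds and 20 downregulated in both, and none was called in opposite directions. That is 40.0% called in both, against 39.0% of the 16153 genes tested in both, with 6.67% against 23.5% upregulated in both and 33.3% against 15.4% downregulated in both. Of all genes 0.13% were called in opposite directions, and none of these shares was tested. With limma on log2(FPKM + 1), 23 members were called in each age comparison, and most calls it ended were of members with a mean under 1 FPKM. Members that passed the filter only through 1 high group had to differ, so these counts describe the tested members and not all 121.

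**Figure D1:**
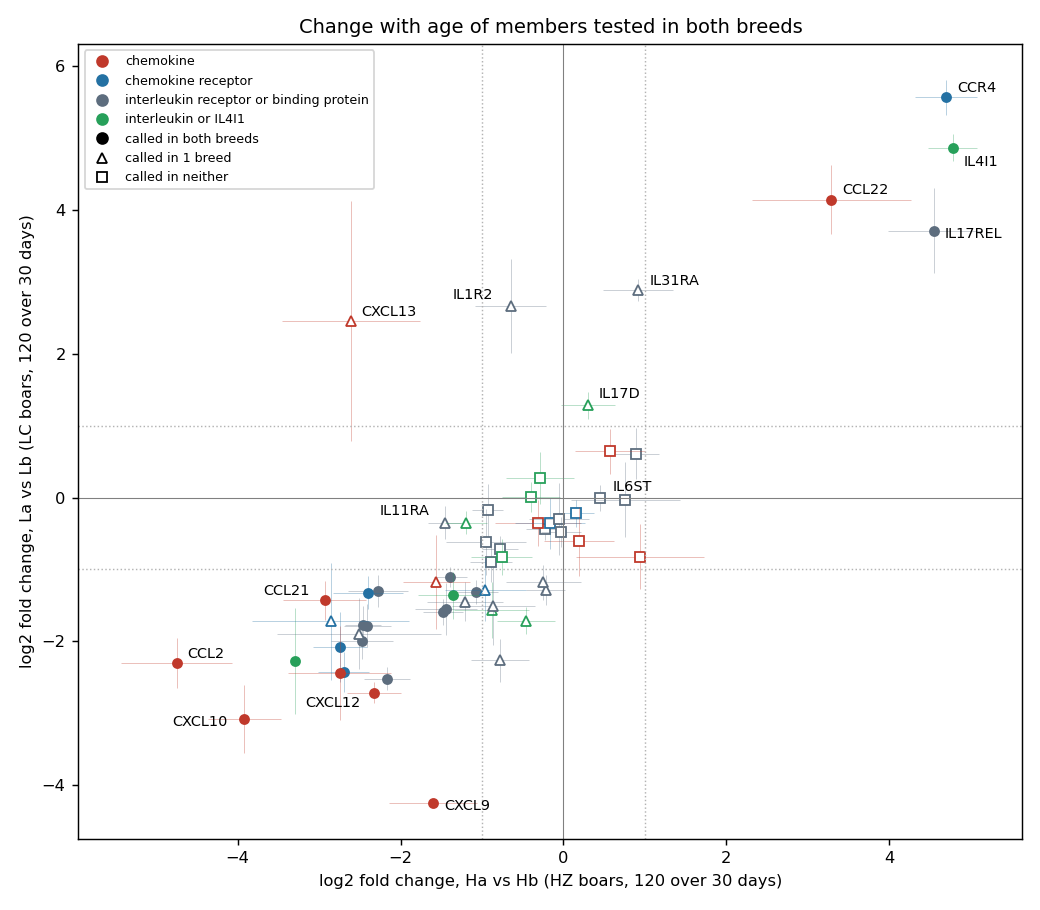
Log2 fold changes with age of the 60 members tested in both breeds, with HZ boars (Ha vs Hb) on the x axis and LC boars (La vs Lb) on the y axis. Bars are standard errors, left out where a group had at most 3 counts per library, dotted lines mark a log2 fold change of 1 in either direction, and IL4I1, CCR4, CCL22 and IL17REL stand alone at the upper right.

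Marker genes of testis cell types also differed with age in the same libraries. Markers of spermatids, the haploid germ cells, summed to 5.7, 7.0 and 6.7 FPKM in Ha, 5280, 5793 and 7667 in Hb, 11, 9.4 and 4.5 in La and 3909, 3342 and 3576 in Lb over 10 markers, with PRM1 the most abundant. Markers of meiotic spermatocytes (8, most abundant PIWIL1) summed to 10, 11 and 6.5 FPKM in Ha, 152, 157 and 134 in Hb, 5.4, 4.8 and 4.4 in La and 116, 110 and 124 in Lb. Both lists were far higher in every 120-day library, and of the 9 spermatid markers tested in each breed all 9 were upregulated, as were all 8 spermatocyte markers. Spermatogonia markers (10, most abundant DDX4) summed to 60, 58 and 50 FPKM in Ha, 174, 175 and 169 in Hb, 33, 33 and 33 in La and 146, 131 and 154 in Lb, with 3 upregulated and 5 downregulated of 10 in Ha vs Hb and 4 and 5 in La vs Lb.

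The 12 macrophage markers (most abundant C1QC) summed to 345, 287 and 258 FPKM in Ha, 53, 54 and 35 in Hb, 294, 266 and 266 in La and 55, 66 and 90 in Lb, with 10 downregulated and 1 upregulated (MRC1) in Ha vs Hb, and 9 and 1 in La vs Lb. The 8 pan-leukocyte markers (most abundant LAPTM5) summed to 71, 63 and 73 FPKM in Ha, 7.4, 7.5 and 3.2 in Hb, 102, 98 and 94 in La and 10, 19 and 24 in Lb, with 7 and 8 of 8 downregulated. The 120-day libraries were below all 30-day libraries for both lists, and Lb lay above Hb for the pan-leukocyte list. T cell markers (8 of 10 in the table, most abundant CD4) summed to 16, 14 and 15 FPKM in Ha, 3.4, 6.5 and 5.5 in Hb, 28, 26 and 25 in La and 5.6, 5.5 and 7.9 in Lb, with 7 of 8 downregulated in each breed. NK or cytotoxic markers (7 genes in 8 rows, most abundant NKG7) summed to 11, 11 and 9.9 FPKM in Ha, 2.0, 2.6 and 1.3 in Hb, 14, 13 and 12 in La and 1.8, 4.7 and 4.2 in Lb, with 6 of 7 and 4 of 6 downregulated. The T cell sum of every 30-day library was above that of every 120-day library. B cell markers (6, most abundant JCHAIN) summed to 0.7, 0.6 and 2.3 FPKM in Ha, 1.0, 0.5 and 0.5 in Hb, 5.5, 3.2 and 4.6 in La and 1.7, 1.2 and 1.8 in Lb, and neutrophil markers (6 of 7 in the table, most abundant S100A8) to 8.9, 6.3 and 32 FPKM in Ha, 0.5, 3.1 and 0.5 in Hb, 17, 24 and 11 in La and 1.5, 2.6 and 0.4 in Lb. Ha3 stood apart from Ha1 and Ha2 in the neutrophil sum. Of the B cell markers, Ha vs Hb tested PAX5 alone, which was upregulated, and La vs Lb tested 4, with PAX5 upregulated and 2 downregulated. Of the neutrophil markers, 3 of 4 tested were downregulated in each breed.

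Mast cell markers (5 of 6, most abundant KIT, which spermatogonia also express, with CPA3 at 0 in all libraries) summed to 18, 19 and 14 FPKM in Ha, 4.9, 8.2 and 4.5 in Hb, 9.8, 9.3 and 12 in La and 10, 9.5 and 9.1 in Lb, and dendritic cell markers (5 of 6, most abundant FLT3, with CLEC9A at 0) to 8.0, 8.1 and 8.7 FPKM in Ha, 1.4, 1.6 and 1.3 in Hb, 7.1, 7.2 and 6.7 in La and 2.2, 2.8 and 3.0 in Lb. Red blood cell markers (5 of 6, most abundant HBB) summed to 165, 226 and 71 FPKM in Ha, 4.2, 17 and 26 in Hb, 107, 38 and 36 in La and 13, 18 and 44 in Lb, and endothelial markers (6, most abundant VWF) to 101, 102 and 92 FPKM in Ha, 15, 29 and 17 in Hb, 106, 84 and 99 in La and 30, 48 and 31 in Lb. Dendritic and endothelial sums were below those of all 30-day libraries in all 120-day libraries, and red blood cell sums were highest in Ha1 and Ha2. Peritubular and stromal markers (10, most abundant COL3A1) summed to 976, 950 and 978 FPKM in Ha, 102, 101 and 66 in Hb, 1341, 1224 and 1512 in La and 530, 516 and 562 in Lb, and Sertoli markers (8, most abundant INHA) to 782, 751 and 973 FPKM in Ha, 181, 288 and 216 in Hb, 1508, 1770 and 1632 in La and 311, 385 and 370 in Lb. Leydig markers (7, most abundant INSL3) summed to 5487, 5009 and 4883 FPKM in Ha, 2180, 189 and 128 in Hb, 7771, 5341 and 6281 in La and 2708, 4057 and 1712 in Lb. Downregulated in Ha vs Hb and La vs Lb, of those tested, were 2 of 4 and 1 of 3 mast cell, 3 of 3 and 3 of 4 dendritic cell, 5 of 5 and 0 of 3 red blood cell, and 6 of 6 and 4 of 6 endothelial markers. For stromal markers this was 8 of 10 and 5 of 10 (with ACTA2 upregulated in La vs Lb), for Leydig markers 4 of 7 and 5 of 7, and for Sertoli markers 4 of 8 in each. CCR7 of the dendritic cell list is itself a member. The stromal sum of Hb was far below that of Lb, and Hb2 and Hb3 had far less Leydig RNA than Hb1. In bulk tissue, fewer cells of a type and less RNA per cell cannot be told apart, and the part of any of these cell types in the changes of chemokine and interleukin genes was not tested.

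**Figure D2:**
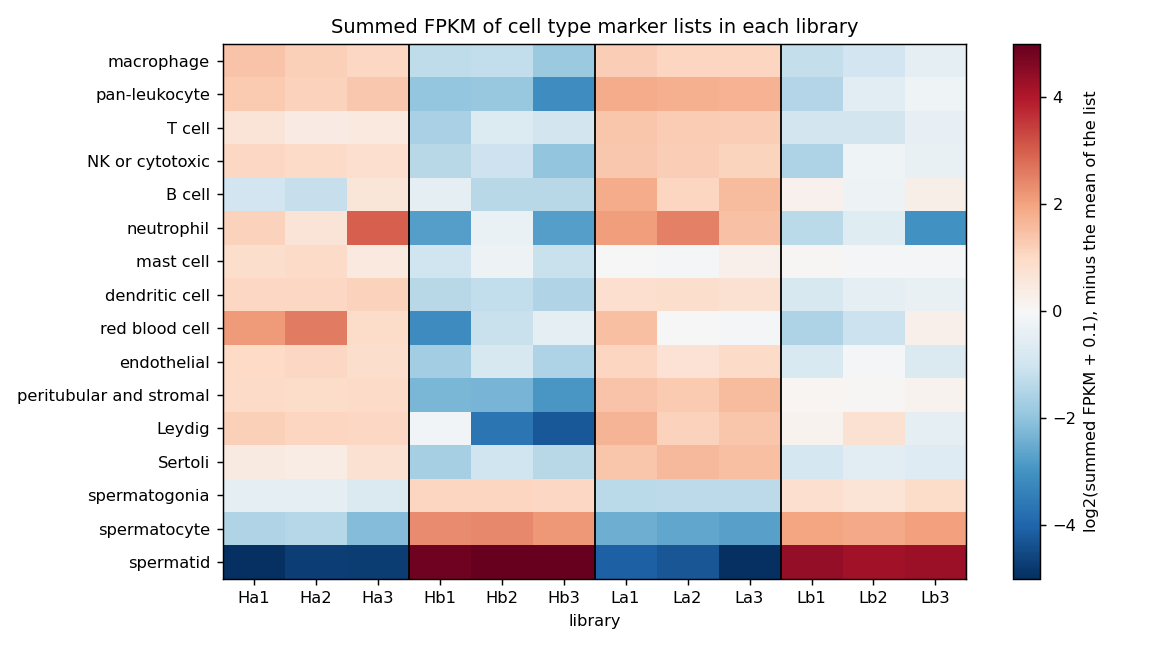
Summed FPKM of 16 lists of cell type markers in each of the 12 libraries, as log2(summed FPKM + 0.1) minus the mean of the list over libraries. Colours end at 5 in either direction, and spermatocyte and spermatid lists are high at 120 days where most leukocyte lists and the endothelial and Sertoli lists are low.

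The pair CCL22 and CCR4 rose with age in both breeds. CCR4, the receptor of CCL22 and CCL17 on regulatory and type 2 helper T cells (Sscrofa11.1 chromosome 13, 18860596 to 18865987), was at 0.45, 0.66 and 0.24 FPKM in Ha, 6.26, 8.46 and 10.3 in Hb, 0.19, 0.18 and 0.12 in La and 6.89, 5.55 and 6.26 in Lb. Every 120-day library was far above every 30-day library, and CCR4 was upregulated in Ha vs Hb (log2 fold change 4.70 ± 0.38, adjusted p 4.28e-05) and in La vs Lb (log2 fold change 5.56 ± 0.24, adjusted p 3.05e-07). CCL22 (chromosome 6, 19296726 to 19301506) was at 0.32, 1.12 and 0 FPKM in Ha, 3.79, 4.51 and 2.07 in Hb, 0.16, 0.21 and 0.16 in La and 1.65, 3.34 and 2.03 in Lb. It was upregulated in Ha vs Hb (log2 fold change 3.29 ± 0.98, adjusted p 0.0188) and in La vs Lb (log2 fold change 4.14 ± 0.48, adjusted p 9.7e-05), without overlap between ages, although Ha2 alone was above 1 FPKM at 30 days. The CCL22 call in Ha vs Hb was lost without Ha1 (adjusted p 0.0696). CCL17, the other ligand of CCR4 and a neighbour of CCL22 (chromosome 6, 19345929 to 19372972), had at most 6 counts in any library and was tested in no comparison. In the same 120-day libraries the T cell markers other than CD4 were all under 1 FPKM, and CD3E, part of the T cell receptor complex, was at 2.03, 1.77 and 2.71 FPKM in Ha, 0.13, 0.29 and 0.13 in Hb, 5.04, 5.45 and 4.28 in La and 0.1, 0.74 and 0.72 in Lb. CD4 was at 4.58, 3.86 and 2.8 FPKM in Ha, 2.44, 4.58 and 4.58 in Hb, 5.9, 4.42 and 4.24 in La and 4.63, 2.99 and 3.7 in Lb, and was not called (log2 fold change 0.49 ± 0.27, adjusted p 0.142 in Ha vs Hb and log2 fold change -0.02 ± 0.22, adjusted p 0.93 in La vs Lb). The source of CCR4 RNA within the tissue was not tested.

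IL4I1 was the member with the highest level at 120 days. This enzyme oxidizes aromatic amino acids and was named after its induction by IL-4 (chromosome 6, 54906401 to 54945840). It was at 4.92, 4.77 and 2.64 FPKM in Ha, 122, 85.8 and 111 in Hb, 2.9, 3.12 and 3.34 in La and 117, 114 and 81.9 in Lb. The 120-day libraries were all above 80 FPKM and the 30-day libraries all under 5 FPKM, with similar levels in both breeds. IL4I1 was upregulated in Ha vs Hb (log2 fold change 4.78 ± 0.30, adjusted p 1.44e-05) and in La vs Lb (log2 fold change 4.86 ± 0.19, adjusted p 1.93e-07). IL4 itself was at 0 counts in all 12 libraries. Without IL4I1, the FPKM of the other 120 members summed to 368, 337 and 332 FPKM in Ha, 104, 164 and 117 in Hb, 456, 451 and 483 in La and 167, 185 and 213 in Lb, with all 120-day libraries below all 30-day libraries.

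The estimated counts behind 1 FPKM of IL4I1 also differed with age. After scaling between libraries, this ratio grows with the length of the transcripts to which reads were assigned, and it was 75.4, 78.9 and 82.9 counts per FPKM in Ha and 86.9, 84.5 and 80.7 in La, against 58.2, 58.2 and 58.4 in Hb and 58.2, 58.5 and 58.9 in Lb. The ages did not overlap, and the 6 values at 120 days were almost equal. The mean was lower at 120 days than at 30 days by a difference of -28.4%. Of 13 members with at least 50 counts and 1 FPKM in every library, 8 differed by at most 2% between ages, as did 80.8% of all coding genes with such counts, and CXCL16 (-11.6%) was the only other one beyond 10%. Beyond 10% lay 5.03% of all 9009 coding genes with such counts. This measure was chosen after the values were seen and was not tested, and the transcripts themselves were not analysed here.

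Some members of the IL-6 and IL-17 families were upregulated with age in at least 1 breed, while others of these families were downregulated. IL31RA, which pairs with the oncostatin M receptor to bind IL31 (chromosome 16, 34987399 to 35071367), was at 4.76, 5.88 and 2.24 FPKM in Ha, 2.95, 8.97 and 5.84 in Hb, 0.81, 1.06 and 0.94 in La and 4.98, 5.82 and 5.87 in Lb. La was the lowest group, at about 1 FPKM, while the other groups overlapped, and IL31RA was upregulated in La vs Lb (log2 fold change 2.88 ± 0.15, adjusted p 7.92e-07) but did not pass in Ha vs Hb (log2 fold change 0.92 ± 0.43, adjusted p 0.0895). Its ligand IL31 had at most 20 counts in any library and was at 0.01, 0.04 and 0 FPKM in Ha, 0.14, 0.1 and 0.07 in Hb, 0.01, 0.01 and 0.01 in La and 0.04, 0.05 and 0.03 in Lb, and it was upregulated in Ha vs Hb (log2 fold change 3.31 ± 0.88, adjusted p 0.0116), and was not tested in La vs Lb. The IL31 call in Ha vs Hb was lost without Ha1 (adjusted p 0.0517), and also with limma at either pseudocount. OSMR, the partner chain, was downregulated in both breeds (log2 fold change -1.54 ± 0.25, adjusted p 0.00108 in Ha vs Hb and log2 fold change -1.29 ± 0.17, adjusted p 0.000192 in La vs Lb). IL11, a ligand of the IL-6 family, was at 0, 0 and 0.05 FPKM in Ha, 0.17, 0.31 and 0.24 in Hb, 0, 0.04 and 0.03 in La and 0.19, 0.31 and 0.11 in Lb. Ha held at most 3 counts per library, and IL11 was upregulated in Ha vs Hb (at least 6.53-fold against a floor of 3 counts per library, adjusted p 0.00569). IL17REL, a receptor-like gene of the IL-17 family, was at 0.01, 0.03 and 0.01 FPKM in Ha, 0.29, 0.21 and 0.24 in Hb, 0.01, 0.06 and 0.03 in La and 0.24, 0.41 and 0.28 in Lb, and was upregulated in Ha vs Hb (log2 fold change 4.55 ± 0.56, adjusted p 0.00031) and in La vs Lb (log2 fold change 3.71 ± 0.59, adjusted p 0.000612). IL11, IL31 and IL17REL stayed under 0.5 FPKM in every library. IL17D, a ligand of the IL-17 family, was at 3.25, 5.64 and 4.39 FPKM in Ha, 2.39, 5.83 and 3.65 in Hb, 3.28, 3.24 and 3.43 in La and 7.28, 5.01 and 7.27 in Lb, upregulated in La vs Lb (log2 fold change 1.28 ± 0.19, adjusted p 0.00044) without overlap, with overlapping groups in Ha vs Hb (log2 fold change 0.30 ± 0.33, adjusted p 0.435, of either sign over scalings, log2 fold change -0.21 to 0.35). The IL17D call in La vs Lb was lost with limma at either pseudocount.

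IL1R2, the decoy receptor that binds IL-1 without signalling (chromosome 3, 52367434 to 52406393), was at 1.4, 1.54 and 0.61 FPKM in Ha, 0.58, 0.49 and 0.46 in Hb, 0.54, 0.64 and 0.58 in La and 5, 2.92 and 0.68 in Lb. Lb1 and Lb2 stood above all other libraries, whereas Lb3 was close to La. IL1R2 was upregulated in La vs Lb (log2 fold change 2.66 ± 0.65, adjusted p 0.00589), but not called in Ha vs Hb (log2 fold change -0.65 ± 0.44, adjusted p 0.216), where the groups overlapped on the count scale only. The signalling receptor IL1R1, which lies next to it (chromosome 3, 52192912 to 52334734), was at 8.98, 7.23 and 7.18 FPKM in Ha, 1.77, 2.59 and 1.58 in Hb, 7.68, 9.4 and 9.66 in La and 2.89, 3.66 and 3.59 in Lb. IL1R1 was downregulated in Ha vs Hb (log2 fold change -1.39 ± 0.20, adjusted p 0.000676) and in La vs Lb (log2 fold change -1.10 ± 0.14, adjusted p 0.000175), and so was its accessory chain IL1RAP (-2.28 ± 0.37 and -1.30 ± 0.22), at 2.28, 2.28 and 1.77 FPKM in Ha, 0.41, 0.51 and 0.24 in Hb, 1.64, 1.57 and 1.94 in La and 0.39, 0.62 and 0.56 in Lb. The IL1RAP call in La vs Lb was lost with limma on log2(FPKM + 1).

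**Figure D3:**
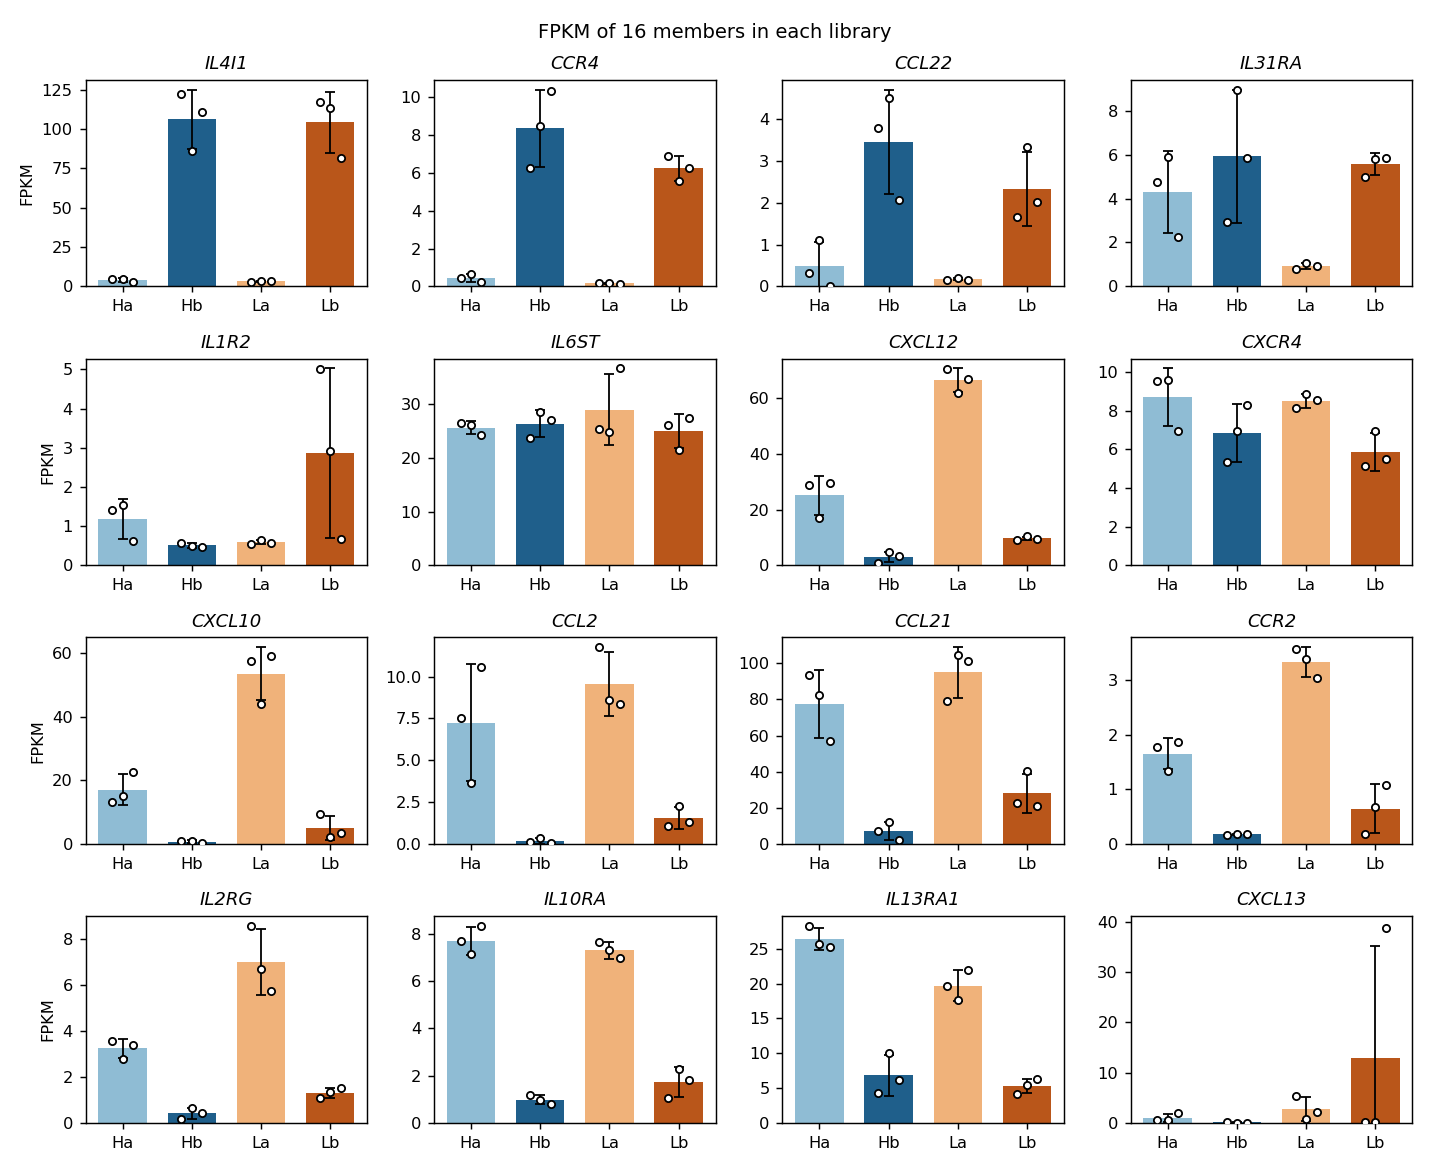
FPKM of 16 members in the 3 libraries of each group (points), with the group mean (bars) and SD (lines), on a separate y axis from 0 for each member. IL4I1, CCR4 and CCL22 are high in Hb and Lb, CXCL12 and CXCL10 are highest in La, and CXCL13 is high in Lb3 alone.

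Several chemokines and chemokine receptors were downregulated with age. CXCL12, which retains stem and progenitor cells in their niches through CXCR4 (chromosome 14, 91516383 to 91543857), was at 28.7, 17.1 and 29.6 FPKM in Ha, 0.88, 4.69 and 3.36 in Hb, 70.4, 61.9 and 66.9 in La and 9.03, 10.3 and 9.59 in Lb. La was highest, Ha next and both 120-day groups lowest, with no overlap between any of these 30-day and 120-day groups, and CXCL12 was downregulated in Ha vs Hb (log2 fold change -2.33 ± 0.33, adjusted p 0.000579) and in La vs Lb (log2 fold change -2.71 ± 0.15, adjusted p 1.03e-06). Its receptor CXCR4 was at 9.53, 9.59 and 6.96 FPKM in Ha, 5.34, 6.93 and 8.32 in Hb, 8.14, 8.86 and 8.56 in La and 5.13, 6.95 and 5.51 in Lb. On the count scale the CXCR4 groups overlapped between ages in Ha vs Hb (log2 fold change 0.15 ± 0.23, adjusted p 0.589) and in La vs Lb (log2 fold change -0.22 ± 0.19, adjusted p 0.326), and the sign in Ha vs Hb turned under other scalings (log2 fold change -0.34 to 0.20). ACKR3, an atypical receptor that also binds CXCL12, was downregulated in Ha vs Hb (log2 fold change -1.59 ± 0.26, adjusted p 0.00132) and did not pass in La vs Lb (log2 fold change -0.23 ± 0.19, adjusted p 0.292).

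The interferon-inducible ligands of CXCR3 lie side by side on chromosome 8, CXCL9 at 71665541 to 71670236, CXCL10 at 71693641 to 71695948 and CXCL11 at 71713790 to 71725669. CXCL10 was at 13.4, 15.2 and 22.6 FPKM in Ha, 0.95, 1.12 and 0.31 in Hb, 57.7, 43.9 and 59 in La and 9.3, 2.26 and 3.59 in Lb. It had the order La, Ha, Lb, Hb, without overlap of Ha with Hb or La with Lb, and was downregulated in Ha vs Hb (log2 fold change -3.92 ± 0.45, adjusted p 0.000213) and in La vs Lb (log2 fold change -3.08 ± 0.47, adjusted p 0.000455). CXCL9 was at 1.02, 0.89 and 1.97 FPKM in Ha, 0.37, 0.29 and 0.29 in Hb, 2.93, 2.05 and 2.39 in La and 0, 0.15 and 0.17 in Lb, and CXCL11 at 0.11, 0.17 and 0.22 FPKM in Ha, 0.05, 0 and 0 in Hb, 1.46, 0.42 and 2.03 in La and 0, 0.03 and 0 in Lb. Lb held at most 3 counts per library of both, and in La vs Lb they were downregulated at least 9.19-fold (CXCL9, adjusted p 0.000506) and at least 7.24-fold (CXCL11, adjusted p 0.000402). CXCL9 was also downregulated in Ha vs Hb (log2 fold change -1.60 ± 0.54, adjusted p 0.0309), and CXCL11 was not tested there. The CXCL9 call in Ha vs Hb was lost without Ha1 (adjusted p 0.0533), Ha3 (0.13), Hb2 (0.0742) or Hb3 (0.0848), and also without the filter on low counts, with the replicate block, with DESeq2 or with limma on log2(FPKM + 1). Their receptor CXCR3 stayed under 1 FPKM, at 0.24, 0.23 and 0.32 FPKM in Ha, 0.07, 0.16 and 0.06 in Hb, 0.58, 0.47 and 0.76 in La and 0.11, 0.22 and 0.27 in Lb, and was downregulated in La vs Lb (log2 fold change -1.29 ± 0.43, adjusted p 0.0248). The CXCR3 call in La vs Lb was lost without La1 (adjusted p 0.06), La3 (0.0993) or Lb1 (0.0727), and also with the replicate block, with DESeq2 or with limma on log2(FPKM + 1).

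CCL21, which draws T cells and dendritic cells through CCR7, was the most abundant chemokine (chromosome 10, 32093783 to 32094482), at 93.5, 82.5 and 56.9 FPKM in Ha, 7.18, 12.4 and 2.37 in Hb, 79, 104 and 101 in La and 22.6, 40.4 and 21.2 in Lb. It fell in Ha vs Hb (log2 fold change -2.93 ± 0.51, adjusted p 0.00165) and in La vs Lb (log2 fold change -1.43 ± 0.27, adjusted p 0.00149), and Lb stayed above Hb. CCL19, the other CCR7 ligand, had at most 18 counts in a library, reached 1.81 FPKM in Lb2 and was tested in neither age comparison. CCR7 itself was at 0.24, 0.14 and 0.2 FPKM in Ha, 0.03, 0.01 and 0 in Hb, 0.4, 0.58 and 0.39 in La and 0.06, 0.14 and 0.21 in Lb and was downregulated in La vs Lb (log2 fold change -1.46 ± 0.49, adjusted p 0.0262). The CCR7 call in La vs Lb was lost without La1 (adjusted p 0.0553), La2 (0.0988), La3 (0.0503) or Lb1 (0.0673), and also with DESeq2 or with limma on log2(FPKM + 1). CCL2, which recruits monocytes through CCR2 (chromosome 12, 40798109 to 40800013), was at 7.5, 3.62 and 10.6 FPKM in Ha, 0.13, 0.36 and 0.05 in Hb, 11.8, 8.58 and 8.34 in La and 1.05, 2.29 and 1.29 in Lb. Hb was lowest, with no library above 0.36 FPKM, and CCL2 was downregulated in Ha vs Hb (log2 fold change -4.75 ± 0.68, adjusted p 0.00061) and in La vs Lb (log2 fold change -2.30 ± 0.35, adjusted p 0.000455). CCL5, a chemokine of T cells and macrophages, was at 5.75, 5.8 and 2.95 FPKM in Ha, 0.55, 0.85 and 0.09 in Hb, 9.43, 12 and 8.31 in La and 0.17, 2.18 and 2.13 in Lb, and was downregulated in both (-2.75 ± 0.63 and -2.44 ± 0.65). CCL24, an eotaxin that attracts eosinophils through CCR3, was at 4.17, 3.55 and 4.56 FPKM in Ha, 0.91, 1.6 and 0.68 in Hb, 1.46, 2.15 and 1.51 in La and 0.3, 0.19 and 1.46 in Lb and was downregulated in Ha vs Hb (log2 fold change -1.56 ± 0.41, adjusted p 0.0108), and did not pass in La vs Lb (log2 fold change -1.17 ± 0.65, adjusted p 0.137).

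The receptors CCR1, CCR3 and CCR2 lie in this order on chromosome 13 between 29227218 and 29374564, after CCR9 and CXCR6, which start at 29033609 and 29095900. CCR2, the receptor of CCL2, was at 1.77, 1.33 and 1.86 FPKM in Ha, 0.16, 0.19 and 0.18 in Hb, 3.56, 3.38 and 3.03 in La and 0.19, 0.67 and 1.08 in Lb. It was high in La, intermediate in Ha and low at 120 days, and was downregulated in Ha vs Hb (log2 fold change -2.74 ± 0.33, adjusted p 0.000268) and in La vs Lb (log2 fold change -2.08 ± 0.49, adjusted p 0.00487). CCR1 was downregulated in both (-2.40 ± 0.43 and -1.32 ± 0.23), and CCR3 in Ha vs Hb (at least 3.53-fold against a floor of 3 counts per library, adjusted p 0.00206). The CCR1 call in La vs Lb was lost with limma on log2(FPKM + 1). CXCR6 of the same stretch, at 0.59, 0.83 and 0.63 FPKM in Ha, 0.4, 0.67 and 0.24 in Hb, 0.91, 0.8 and 0.69 in La and 0.32, 0.52 and 0.67 in Lb, did not pass (-0.17 ± 0.43 and -0.36 ± 0.36), and CCR9 had at most 5 counts in a library. CCR4, the receptor that rose, lies elsewhere on chromosome 13.

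The remaining chemokines gave a mixed account. CXCL16, a membrane-bound ligand of CXCR6, was at 5.52, 4.88 and 3.84 FPKM in Ha, 2.16, 6.25 and 6.12 in Hb, 16.5, 10.3 and 9.74 in La and 9.04, 7.51 and 2.42 in Lb, and on the count scale ages overlapped in both breeds (log2 fold change 0.19 ± 0.43, adjusted p 0.715, of either sign over scalings, in Ha vs Hb and log2 fold change -0.61 ± 0.48, adjusted p 0.284 in La vs Lb). CXCL14 was downregulated in La vs Lb (log2 fold change -2.77 ± 0.56, adjusted p 0.00216) and was under 2 FPKM throughout. CXCL13, a B cell attractant that acts on CXCR5, was at 0.67, 0.51 and 1.98 FPKM in Ha, 0.24, 0.08 and 0.03 in Hb, 5.33, 0.83 and 2.12 in La and 0.1, 0.15 and 38.7 in Lb. Lb3 was far above all other libraries, with 1257 counts, and the B cell markers did not stand out there, at 1.80 FPKM summed against 1.70 in Lb1. CXCL13 was downregulated in Ha vs Hb (log2 fold change -2.61 ± 0.85, adjusted p 0.0267), and did not pass in La vs Lb (log2 fold change 2.45 ± 1.67, adjusted p 0.218, of either sign over alternatives, log2 fold change -0.84 to 2.47). The CXCL13 call in Ha vs Hb was lost without Ha3 (adjusted p 0.106), Hb2 (0.0802) or Hb3 (0.0771), and also in the fit of all 12 libraries, with the replicate block or with limma on log2(FPKM + 1). CCL26 was at 5.92 FPKM in Hb2 and at 0.90 and 0.77 FPKM in Hb1 and Hb3. CXCR2, the neutrophil receptor, was at 0.37, 0.94 and 0.71 FPKM in Ha, 0.02, 0.17 and 0 in Hb, 0.89, 0.75 and 0.59 in La and 0.21, 0.27 and 0 in Lb and was downregulated in Ha vs Hb (log2 fold change -2.86 ± 0.96, adjusted p 0.0309). The CXCR2 call in Ha vs Hb was lost without Ha2 (adjusted p 0.0907), Ha3 (0.0691), Hb1 (0.0775) or Hb3 (0.0558), and also with limma on log2(FPKM + 1). CCL25, a ligand of CCR9, was at 1.46, 0.75 and 0.62 FPKM in Ha, 0.9, 1.29 and 1.14 in Hb, 1.11, 0.78 and 0.75 in La and 0.92, 1.15 and 1.42 in Lb. CCL25, CCL26 and CXCL2 did not pass in either age comparison, and CCL1, CCL3L1, CCL4, CCL8, CCL11, CCL14, CCL16, CCL20, CCL27, CCL28, CCR6, CCR8, CCR10, CXCL8 and CXCR5 were too low for both.

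Of receptors of the common gamma chain and related families, 4 of 8 tested were downregulated in Ha vs Hb, where 23.2% of all genes were, and 7 of 10 in La vs Lb, against 20.1%, and neither share was tested. IL2RG, the gamma chain itself (chromosome X, 57143568 to 57151242), was at 3.55, 2.78 and 3.38 FPKM in Ha, 0.17, 0.66 and 0.44 in Hb, 8.54, 6.67 and 5.71 in La and 1.06, 1.35 and 1.5 in Lb. The order was La, Ha, Lb, Hb, without overlap between neighbours in it, and IL2RG was downregulated in Ha vs Hb (log2 fold change -2.47 ± 0.38, adjusted p 0.000864) and in La vs Lb (log2 fold change -2 ± 0.24, adjusted p 0.000112). IL2RB, the beta chain for IL-2 and IL-15, was at 1.96, 1.95 and 2.44 FPKM in Ha, 0.22, 0.26 and 0.38 in Hb, 2.18, 2.69 and 2.74 in La and 0.35, 0.78 and 0.65 in Lb and was downregulated in both (-2.41 ± 0.29 and -1.78 ± 0.30). IL7, a survival factor of lymphocytes, was at 0.34, 0.37 and 0.39 FPKM in Ha, 0.04, 0.04 and 0 in Hb, 0.6, 0.25 and 0.41 in La and 0.06, 0.02 and 0 in Lb, and its receptor chain IL7R at 0.06, 0.14 and 0.21 FPKM in Ha, 0, 0.11 and 0.04 in Hb, 0.76, 0.56 and 0.55 in La and 0, 0.08 and 0.11 in Lb. IL7 was downregulated in Ha vs Hb (at least 3.52-fold against a floor of 3 counts per library, adjusted p 0.00157) and both in La vs Lb (log2 fold change -2.27 ± 0.74, adjusted p 0.0232 for IL7, and log2 fold change -3.03 ± 0.71, adjusted p 0.0051 for IL7R). The IL7 call in La vs Lb was lost without La1 (adjusted p 0.0946), and also with limma on log2(FPKM + 1).

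IL15, which supports NK and memory T cells, was at 0.98, 1.39 and 1.91 FPKM in Ha, 0.52, 0.79 and 0.24 in Hb, 1.03, 0.9 and 2.03 in La and 0.32, 0.25 and 0.41 in Lb, and its receptor IL15RA at 0.19, 0.09 and 0.21 FPKM in Ha, 0.05, 0.05 and 0 in Hb, 0.26, 0.33 and 0.29 in La and 0, 0.05 and 0 in Lb. Both were downregulated in La vs Lb (log2 fold change -1.56 ± 0.39, adjusted p 0.00656 for IL15, and at least 4.76-fold against a floor of 3 counts per library, adjusted p 0.00439 for IL15RA). IL2RA, the alpha chain for IL-2, was at 0.09, 0.11 and 0.14 FPKM in Ha, 0.02, 0.08 and 0.05 in Hb, 0.24, 0.43 and 0.32 in La and 0.15, 0.03 and 0.09 in Lb and was downregulated in La vs Lb (log2 fold change -1.51 ± 0.54, adjusted p 0.0338). The IL2RA call in La vs Lb was lost without La2 (adjusted p 0.113), La3 (0.0745), Lb2 (0.0687) or Lb3 (0.0882), and also with the replicate block or with limma on log2(FPKM + 1). The ligands IL2, IL5, IL21 and IL9 had at most 5 counts in a library. IL21R was higher in Ha than in any other group, at 3.14, 3.35 and 3.08 FPKM in Ha, 1.17, 1.16 and 1.22 in Hb, 1.32, 1.18 and 1.18 in La and 0.44, 0.9 and 1.35 in Lb. Its log2 fold change in Ha vs Hb was within the fold limit (log2 fold change -0.93 ± 0.19, adjusted p 0.00342).

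Receptor chains for IL-4 and IL-13 were among the more abundant members. IL13RA1 (chromosome X, 97300960 to 97353754) was at 28.3, 25.7 and 25.3 FPKM in Ha, 4.3, 10 and 6.2 in Hb, 19.6, 17.6 and 22 in La and 4.16, 5.46 and 6.26 in Lb. It was downregulated in Ha vs Hb (log2 fold change -1.48 ± 0.25, adjusted p 0.00152) and in La vs Lb (log2 fold change -1.59 ± 0.18, adjusted p 7.36e-05), with every 120-day library under every 30-day library. IL4R, its partner in the receptor for both cytokines, was at 6.2, 7.7 and 6.06 FPKM in Ha, 1.38, 3.28 and 2.2 in Hb, 7.81, 6.83 and 7.32 in La and 2.17, 2.83 and 2.16 in Lb and was downregulated in both (-1.07 ± 0.27 and -1.31 ± 0.17). The IL4R call in Ha vs Hb was lost without Ha2 (log2 fold change -0.96) or Hb1 (log2 fold change -0.83). IL13RA2, which binds IL-13 as a decoy, was at 2.78, 2.17 and 2.26 FPKM in Ha, 2.64, 5.02 and 3 in Hb, 1.93, 1.2 and 1.86 in La and 1.71, 1.64 and 3.46 in Lb, and it was not called, by the fold limit in HZ boars and by adjusted p in LC boars (log2 fold change 0.89 ± 0.28, adjusted p 0.0226 in Ha vs Hb and log2 fold change 0.61 ± 0.35, adjusted p 0.145 in La vs Lb). The ligand IL13 had at most 8 counts in a library. IL5RA and IL9R were at most 0.07 and 0.45 FPKM.

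Among receptors of the IL-6 and IL-12 families, the shared chain IL6ST (chromosome 16, 35101304 to 35151832) lies next to IL31RA on chromosome 16 and was at 26.5, 26.2 and 24.2 FPKM in Ha, 23.6, 28.4 and 27.1 in Hb, 25.5, 24.8 and 36.7 in La and 26.1, 21.5 and 27.4 in Lb. Levels overlapped between all groups in FPKM, and on the count scale the log2 fold change was within the fold limit in Ha vs Hb (log2 fold change 0.45 ± 0.11, adjusted p 0.00725; log2 fold change 0.04 to 0.50 over alternatives) and did not pass in La vs Lb (log2 fold change -0.01 ± 0.18, adjusted p 0.949, of either sign over scalings). The IL-6 binding chain IL6R was at 3.45, 3.82 and 4.12 FPKM in Ha, 1.29, 2.05 and 2.71 in Hb, 5.12, 7.23 and 6.48 in La and 0.99, 1.08 and 2.13 in Lb and was downregulated in La vs Lb (log2 fold change -1.28 ± 0.21, adjusted p 0.000706), with overlap on the count scale in Ha vs Hb (log2 fold change -0.22 ± 0.24, adjusted p 0.422). IL11RA, the receptor of IL-11, was at 12.9, 9.97 and 11.9 FPKM in Ha, 2.27, 3.88 and 2.65 in Hb, 5.74, 10.8 and 9.13 in La and 5.06, 5.34 and 6 in Lb. It was downregulated in Ha vs Hb (log2 fold change -1.46 ± 0.20, adjusted p 0.000473) and did not pass in La vs Lb (log2 fold change -0.35 ± 0.23, adjusted p 0.193), and the interaction missed the threshold (log2 fold change 1.09 ± 0.31, adjusted p 0.0547). IL27RA, the receptor for IL-27 (chromosome 2, 65127278 to 65149665), was at 6.5, 6.22 and 9.01 FPKM in Ha, 0.81, 1.67 and 1 in Hb, 10.5, 10.9 and 11 in La and 1.35, 1.39 and 1.85 in Lb, with a wide gap between ages in both breeds (-2.17 ± 0.28 and -2.52 ± 0.16, adjusted p 0.000393 and 2.48e-06). IL12RB2, a signalling chain for IL-12, was at 0.4, 0.63 and 0.53 FPKM in Ha, 0.19, 0.31 and 0.16 in Hb, 0.62, 0.71 and 0.67 in La and 0.13, 0.12 and 0.12 in Lb, and IL12RB1 at 0.26, 0.28 and 0.3 FPKM in Ha, 0, 0.11 and 0 in Hb, 0.33, 0.3 and 0.17 in La and 0.05, 0.08 and 0.04 in Lb. Both were downregulated in La vs Lb (log2 fold change -2.26 ± 0.30, adjusted p 0.000217 for IL12RB2, and log2 fold change -1.89 ± 0.49, adjusted p 0.00831 for IL12RB1). Neither passed in Ha vs Hb (log2 fold change -0.78 ± 0.36, adjusted p 0.0879 for IL12RB2, and log2 fold change -2.51 ± 1.01, adjusted p 0.0575 for IL12RB1). Of 9 alternatives of filter, scaling or model there, 2 called IL12RB2 and 5 called IL12RB1. The IL12RB1 call in La vs Lb was lost in the fit of all 12 libraries or with limma on log2(FPKM + 1). The ligands IL6, IL12A, IL12B, IL23A and IL27 and the receptor IL23R had at most 14 counts in any library.

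IL10RA, the ligand-binding chain for IL-10 on leukocytes, was at 7.68, 7.13 and 8.33 FPKM in Ha, 1.19, 0.98 and 0.79 in Hb, 7.67, 7.31 and 6.96 in La and 1.07, 2.29 and 1.83 in Lb. It was downregulated in Ha vs Hb (log2 fold change -2.46 ± 0.22, adjusted p 7.02e-05) and in La vs Lb (log2 fold change -1.77 ± 0.26, adjusted p 0.000356). IL10RB, which IL-10, IL-22 and lambda interferons share, was at 10.5, 9.01 and 8.82 FPKM in Ha, 4.25, 4.4 and 3.03 in Hb, 9.59, 11.2 and 9.9 in La and 4.31, 5.4 and 5.37 in Lb, and its log2 fold changes were within the fold limit (-0.78 ± 0.22 and -0.71 ± 0.18). Of the ligands of this family, IL10 had at most 7 counts in a library, and IL19, IL20, IL22, IL24, IL26, IL28B and IL29 at most 7. IL20RB was within the fold limit in both breeds (-0.89 ± 0.26 and -0.90 ± 0.27), and IL20RA, IL22RA1 and IL22RA2 were too low in both age comparisons.

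In the IL-1 family, IL18, an activator of interferon gamma release (chromosome 9, 39839959 to 39861258), was at 24.1, 27.7 and 26 FPKM in Ha, 8, 11.4 and 5.15 in Hb, 21.3, 20.2 and 21.1 in La and 13.3, 10.7 and 15.9 in Lb. It was downregulated in Ha vs Hb (log2 fold change -1.20 ± 0.26, adjusted p 0.00456), and did not pass in La vs Lb (log2 fold change -0.35 ± 0.16, adjusted p 0.0873). The IL18 call in Ha vs Hb was lost without Hb3 (log2 fold change -0.96). IL18R1 was at 0.46, 0.68 and 0.75 FPKM in Ha, 0.19, 0.29 and 0.15 in Hb, 0.85, 0.8 and 0.93 in La and 0.26, 0.21 and 0.25 in Lb, and IL18RAP at 0.12, 0.18 and 0.16 FPKM in Ha, 0, 0.03 and 0.01 in Hb, 0.17, 0.25 and 0.2 in La and 0, 0.01 and 0.04 in Lb. These receptor chains of IL18 were downregulated in La vs Lb (log2 fold change -1.45 ± 0.27, adjusted p 0.0014 for IL18R1, and at least 4.59-fold against a floor of 3 counts per library, adjusted p 0.00467 for IL18RAP). In Ha vs Hb, IL18R1 just missed the threshold (log2 fold change -1.21 ± 0.47, adjusted p 0.052) and was called by 6 of 9 alternatives of filter, scaling or model. IL18RAP was not tested there. The IL18 inhibitor IL18BP, at 0.8, 0.85 and 1.19 FPKM in Ha, 0.51, 0.73 and 0.42 in Hb, 1.48, 1.62 and 0.9 in La and 0.71, 0.91 and 1.04 in Lb, did not pass in either breed. IL33, a nuclear alarmin, was at 4.1, 4.27 and 4.05 FPKM in Ha, 1.1, 2.25 and 2.53 in Hb, 4.19, 5.45 and 7.31 in La and 2.31, 2.52 and 2.79 in Lb, within the fold limit in La vs Lb (log2 fold change -0.83 ± 0.25, adjusted p 0.0179), and its receptor IL1RL1 was at most 0.43 FPKM. IL18RAP, IL18R1, IL1RL1, IL1RL2, IL1R1 and IL1R2 follow each other on chromosome 3 from 51762111 to 52406393. In La vs Lb, IL18RAP, IL18R1, IL1RL2 and IL1R1 were downregulated, IL1RL1 did not pass and IL1R2 at the far end was upregulated. IL1RAPL1 was downregulated in both breeds at 0.11 FPKM or less, and IL1A, IL1B, IL1B2 and IL1RAPL2 were too low for the age comparisons. The IL1RAPL1 call in Ha vs Hb was lost without Ha2 (adjusted p 0.0504), and also with limma at either pseudocount. That in La vs Lb was lost with limma at either pseudocount too.

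In the IL-17 family, IL17RA, the common receptor chain, was at 2.21, 0.98 and 1.92 FPKM in Ha, 1.52, 0.71 and 0.76 in Hb, 3.42, 2.21 and 3.13 in La and 0.96, 1.16 and 1 in Lb and was downregulated in La vs Lb (log2 fold change -1.18 ± 0.24, adjusted p 0.00216), with overlapping groups in Ha vs Hb. The IL17RA call in La vs Lb was lost with limma on log2(FPKM + 1). IL17RD, at 2.2, 2.26 and 3.14 FPKM in Ha, 1.31, 2.09 and 1.27 in Hb, 3.1, 2.84 and 3.4 in La and 1.53, 1.85 and 2.17 in Lb, was not called (-0.23 ± 0.23 and -0.44 ± 0.15), and IL17RB (at most 0.55 FPKM) and the ligand IL17B, at 0.64, 0.88 and 0.81 FPKM in Ha, 0.53, 0.31 and 0.52 in Hb, 0.67, 0.89 and 1.14 in La and 0.66, 0.85 and 1.15 in Lb, did not pass. IL25 was downregulated in both breeds (-1.36 ± 0.43 and -1.36 ± 0.33) at 0.62 FPKM or less. The IL25 call in Ha vs Hb was lost without Ha1 (adjusted p 0.0917), Ha2 (0.0723), Hb1 (0.0722) or Hb3 (0.0754), and also with limma on log2(FPKM + 1). IL17A, IL17C and IL17F had at most 4 counts in a library and IL17RE at most 9.63. IL16, a ligand of CD4, was at 2.53, 2.11 and 3.04 FPKM in Ha, 1.23, 0.61 and 1.25 in Hb, 3.49, 3.2 and 3.44 in La and 0.74, 0.78 and 1.05 in Lb and was downregulated in La vs Lb (log2 fold change -1.71 ± 0.19, adjusted p 6.46e-05), but not called in Ha vs Hb (log2 fold change -0.46 ± 0.36, adjusted p 0.282), where the groups overlapped on the count scale only. IL34, a ligand of the macrophage receptor CSF1R, was at 2.31, 2.38 and 1.89 FPKM in Ha, 0.76, 1.52 and 1.48 in Hb, 4.28, 3.81 and 3.76 in La and 2.84, 3.82 and 2.95 in Lb, and neither age comparison passed. CSF1R itself was downregulated in both (log2 fold change -2.59 ± 0.31, adjusted p 0.000262 in Ha vs Hb and log2 fold change -1.63 ± 0.25, adjusted p 0.000493 in La vs Lb).

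Between breeds at 30 days, Ha vs La called 14 of the 69 tested members (20.3%), against 7.62% of all 15648 genes tested. Of these, 11 were higher in La (15.9%, against 3.6% of all genes) and 3 lower (4.35%, against 4.01%), and the median log2 fold change of the tested members was 0.33, where that of all genes was 0.00. CXCL12 was at 28.7, 17.1 and 29.6 FPKM in Ha and 70.4, 61.9 and 66.9 in La, without overlap (log2 fold change 1.29 ± 0.15, adjusted p 0.00191). CXCL10 was at 13.4, 15.2 and 22.6 FPKM in Ha and 57.7, 43.9 and 59 in La, with every La library above every Ha library (log2 fold change 1.68 ± 0.21, adjusted p 0.00235). CXCL11 (2.14 ± 0.48) and CXCL16 (1.28 ± 0.26) were also higher in La, as were the receptors CCR2 (1.04 ± 0.19), IL2RG (1.12 ± 0.20), IL7R (2.19 ± 0.46) and IL2RA (1.68 ± 0.38) and the ligand CCL5 (1.06 ± 0.29), with adjusted p between 0.00913 and 0.0365. The last called member was CXCR3 (log2 fold change 1.22 ± 0.35, adjusted p 0.0425). The CXCL11 call in Ha vs La was lost without Ha1 (adjusted p 0.0704), Ha2 (0.0647), La1 (0.0599) or La3 (0.0716), and also in the fit of all 12 libraries or with limma on log2(FPKM + 1). The CXCL16 call in Ha vs La was lost without La1 (log2 fold change 1), and also in the fit of all 12 libraries. The CCR2 call in Ha vs La was lost without Ha2 (log2 fold change 0.90) or La1 (log2 fold change 1), and also with library totals alone, in the fit of all 12 libraries or with limma at either pseudocount. The IL2RG call in Ha vs La was lost without La1 (log2 fold change 0.96), and also with limma on log2(FPKM + 1). The IL7R call in Ha vs La was lost without Ha2 (adjusted p 0.0537) or La1 (0.0533), and also in the fit of all 12 libraries or with limma on log2(FPKM + 1). The IL2RA call in Ha vs La was lost without Ha1 (adjusted p 0.0689), Ha2 (0.0698), La2 (0.0694) or La3 (0.0606), and also in the fit of all 12 libraries or with limma at either pseudocount. The CCL5 call in Ha vs La was lost without Ha1 (adjusted p 0.0607), Ha2 (0.0591), Ha3 (log2 fold change 0.80), La1 (0.0736), La2 (0.105) or La3 (0.0626), and also in the fit of all 12 libraries or with limma on log2(FPKM + 1). The CXCR3 call in Ha vs La was lost without Ha1 (adjusted p 0.131), Ha2 (0.136), La1 (0.0932), La2 (0.0667) or La3 (0.139), and also without the filter on low counts, in the fit of all 12 libraries, with the replicate block, with DESeq2 or with limma at either pseudocount.

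The 3 members lower in La were IL31RA, IL21R and CCL24. IL31RA was at 4.76, 5.88 and 2.24 FPKM in Ha and 0.81, 1.06 and 0.94 in La, and the lowest Ha library was still above the highest La library (log2 fold change -2.17 ± 0.33, adjusted p 0.00475). IL21R was at 3.14, 3.35 and 3.08 FPKM in Ha and 1.32, 1.18 and 1.18 in La, with narrow groups far apart (log2 fold change -1.31 ± 0.15, adjusted p 0.00193). The IL21R call in Ha vs La was lost with limma on log2(FPKM + 1). CCL24 was at 4.17, 3.55 and 4.56 FPKM in Ha and 1.46, 2.15 and 1.51 in La (log2 fold change -1.49 ± 0.28, adjusted p 0.0105). The CCL24 call in Ha vs La was lost in the fit of all 12 libraries or with limma on log2(FPKM + 1). IL21R and IL4R lie next to each other on chromosome 3, at 19447488 to 19489201 and 19526343 to 19576792, and IL4R did not pass here (log2 fold change 0.18 ± 0.12, adjusted p 0.345). IL21, the ligand of IL21R, was at 0 counts throughout. The macrophage markers had 1 of 12 called in Ha vs La (LYZ, higher in La, median log2 fold change of the list -0.04), and T cell markers 2 of 8 (CD2 and CD3E, higher in La, median 0.79). FCER1A and HDC of the mast cell list, 4 of 5 red blood cell markers, 4 of 8 spermatocyte markers, NCR1 and DAZL were lower in La, and 3 of 8 Sertoli markers (INHA, AMH and FSHR) and HSD17B3 were higher. The part of these lists in the breed differences was not tested. Without La1, 7 members were called, and without Ha2, 8.

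At 120 days, the main edgeR fit called none of the 57 tested members in Hb vs Lb, against 3.85% of all 16311 genes tested. An unadjusted p under 0.05 was reached by 16 members, DESeq2 called 6, limma on log2 FPKM 3 with either pseudocount, and the model of all 12 libraries 11. The members with the smallest adjusted p were CCL2 (log2 fold change 2.91 ± 0.68, adjusted p 0.0511), CXCL10 (log2 fold change 2.55 ± 0.65, adjusted p 0.063), IL2RG (log2 fold change 1.60 ± 0.43, adjusted p 0.0713) and IL34 (log2 fold change 1.37 ± 0.37, adjusted p 0.0715). In all 4 the Lb libraries lay above all Hb libraries. Over 9 alternatives of filter, scaling or model, CCL2 was called by 7, CXCL10 and IL34 by 3 each and IL2RG by 2. Without Hb2, 4 members were called, and without Lb3, 1. Peritubular and stromal markers had 5 of 10 upregulated in Hb vs Lb, macrophage markers 2 of 11 (LYZ and AIF1), pan-leukocyte markers 1 (TYROBP) and endothelial markers 1 (PECAM1), whereas 1 of 10 spermatid markers (AKAP4) was downregulated, and their part was not tested.

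The interaction of breed and age asks whether the change from 30 to 120 days differed between LC and HZ boars. It called 2 of the 76 tested members (2.63%), against 5.14% of all 17332 genes tested. IL1R2 had the larger estimate (log2 fold change 3.31 ± 0.85, adjusted p 0.0406) and IL31RA the smaller (log2 fold change 1.94 ± 0.50, adjusted p 0.0406), both with the higher log2 fold change in LC boars. Among cell type markers, 5 of 10 stromal markers were also called higher in the interaction, as were AIF1, PECAM1, KIT, FLT3, SLC4A1 and DAZL, and 2 of 10 spermatid markers (ACRV1 and PRM1) lower, and their part was not tested. For IL31RA the 30-day groups were apart and the 120-day groups overlapped, whereas for IL1R2 Lb1 and Lb2 stood out. For members called in 1 breed only, such as IL11RA (1.09 ± 0.31), IL18 (log2 fold change 0.83 ± 0.31, adjusted p 0.121), IL16 (log2 fold change -1.27 ± 0.41, adjusted p 0.0815) or IL6R (log2 fold change -1.07 ± 0.32, adjusted p 0.0645), the main edgeR fit called no difference between breeds. Of these, IL6R was called in the lower direction with the replicate block, and IL11RA with limma on log2(FPKM + 1). In the main edgeR fit of all 12 libraries, IL31RA and IL1R2 were the only members called in the interaction. Upper-quartile factors and library totals alone gave 3 each, DESeq2 7 and limma on log2(FPKM + 0.1) 5. The IL1R2 call in the interaction was lost without Ha1 (adjusted p 0.0851), Ha2 (0.0916), Hb2 (0.0533), Hb3 (0.0802), La1 (0.0836), La2 (0.0776), La3 (0.0883), Lb1 (0.083) or Lb2 (0.0753), and also with the replicate block or with limma on log2(FPKM + 1). The IL31RA call in the interaction was lost without Ha1 (adjusted p 0.0913), Ha2 (0.0925), Hb3 (0.0789), La1 (0.0879), La2 (0.0734), La3 (0.0922), Lb1 (0.0612), Lb2 (0.0784) or Lb3 (0.0641), and also with limma on log2(FPKM + 1).

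In Ha vs Hb, JAK, STAT and SOCS genes had 21 tested, 3 upregulated and 10 downregulated, median log2 fold change -0.86, and in La vs Lb 21 tested, 2 upregulated and 9 downregulated, median log2 fold change -0.89. STAT4, which transmits IL-12 signals in lymphocytes, was at 0.4, 0.31 and 0.77 FPKM in Ha, 50.2, 47.1 and 60.2 in Hb, 0.86, 1.22 and 0.74 in La and 39, 45.8 and 39.3 in Lb. It was upregulated in Ha vs Hb (log2 fold change 7.30 ± 0.37, adjusted p 5.85e-06) and in La vs Lb (log2 fold change 5.89 ± 0.21, adjusted p 1.14e-07), while the IL-12 receptor chains IL12RB1 and IL12RB2 were under 1 FPKM throughout. JAK3, the kinase bound to IL2RG, was at 2.27, 2.52 and 2.59 FPKM in Ha, 0.62, 0.28 and 0.29 in Hb, 4.07, 3.99 and 4.12 in La and 0.71, 1.12 and 1.24 in Lb, and was downregulated in both (log2 fold change -2.13 ± 0.38, adjusted p 0.00197, and log2 fold change -1.68 ± 0.21, adjusted p 0.000147). JAK1 was high in all groups, at 74.2, 77 and 69.1 FPKM in Ha, 37.6, 78.3 and 47.8 in Hb, 64.5, 60.3 and 68.7 in La and 67.5, 64.8 and 71.7 in Lb, and was not called. SOCS3 and SOCS2, feedback inhibitors of cytokine receptors, were downregulated in Ha vs Hb (log2 fold change -2.58 ± 0.26, adjusted p 0.000114, and log2 fold change -3.02 ± 0.25, adjusted p 4.36e-05) and in La vs Lb (log2 fold change -2.08 ± 0.27, adjusted p 0.000169, and log2 fold change -2.48 ± 0.27, adjusted p 7.02e-05), whereas SOCS7 was upregulated in both (log2 fold change 1.42 ± 0.16, adjusted p 0.000235, and log2 fold change 1.11 ± 0.14, adjusted p 0.000176).

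The list of IL-1 receptor and NF-kB signalling had 22 tested, 4 upregulated and 10 downregulated, median log2 fold change -0.92 in Ha vs Hb and 22 tested, 2 upregulated and 6 downregulated, median log2 fold change -0.69 in La vs Lb. NFKBIA, the inhibitor of NF-kB, was at 54.8, 50.6 and 57.3 FPKM in Ha, 10.9, 18.8 and 12.5 in Hb, 55.2, 44.2 and 52.5 in La and 18.3, 23.5 and 19.5 in Lb and was downregulated in Ha vs Hb (log2 fold change -1.47 ± 0.18, adjusted p 0.000289), just short of the fold limit in La vs Lb (log2 fold change -0.99 ± 0.15, adjusted p 0.000509). TOLLIP, a regulator of IL-1 receptor signalling, and the kinase CHUK were upregulated in both breeds (log2 fold change 1.31 ± 0.17, adjusted p 0.000375, and log2 fold change 1.18 ± 0.13, adjusted p 0.000179, in Ha vs Hb). Other cytokines and receptors had 17 tested, 1 upregulated and 14 downregulated, median log2 fold change -2.14 in Ha vs Hb and 17 tested, 0 upregulated and 10 downregulated, median log2 fold change -1.43 in La vs Lb. TNFRSF1A, a receptor of tumour necrosis factor, was at 15.3, 4.03 and 12.7 FPKM in Ha, 0.75, 1.5 and 0.14 in Hb, 0.47, 0.47 and 0.24 in La and 0, 0.2 and 2.3 in Lb, with Ha above La (log2 fold change -4.72 ± 0.55, adjusted p 0.002). Chemokines and receptors with other names had 10 tested, 0 upregulated and 5 downregulated, median log2 fold change -1.70 in Ha vs Hb and 10 tested, 0 upregulated and 3 downregulated, median log2 fold change -0.28 in La vs Lb. Of all genes, 28.2% were upregulated and 23.2% downregulated in Ha vs Hb, and 27.5% and 20.1% in La vs Lb (51.4% and 47.6% in either direction), and no list was tested against these shares. In Ha vs La, where 7.62% of all genes were called, the 4 lists had 0, 0, 2 and 1 genes called in this order.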

How the data were processed

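Testis RNA of 12 boars was sequenced after removal of ribosomal RNA, in strand-specific libraries. Per the submitters' notes, the authors filtered reads with fastp 0.18.0, removed ribosomal reads with Bowtie2 2.2.8, mapped to Sus scrofa 11.1 with HISAT2 2.1.0 and assembled transcripts with StringTie 1.3.4. For each coding gene and library, the deposited table holds estimated counts and FPKM. The tool that made the estimated counts is not given in the sources used here. FPKM was scaled by the authors to length and mapped fragments. The lncRNA table and the transcript assembly were not used here.

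Estimated counts were rounded to whole numbers. For each comparison of ages or of breeds, the 6 libraries concerned were filtered with filterByExpr (minimum count 10), scaled by TMM and tested over all genes with edgeR 4.0.16 (quasi-likelihood, R 4.3.3, Benjamini-Hochberg). The interaction used all 12 libraries. The standard error is the absolute log2 fold change divided by the square root of F. Folds against a group with at most 3 counts in every library were computed against 3 counts per library. With 3 libraries against 3, an exact permutation test cannot go below p 0.10. Counts were simulated from the gene means and the trend of dispersion over genes, with 200 genes changed 4-fold. For Ha vs La edgeR recovered 191 with 7 false calls, and for Hb vs Lb 165 with 4 false calls. The changed genes were drawn only from those above a minimum mean count, so recovery of members with few counts was not measured. Alternatives were DESeq2 1.42.0, limma 3.58.1 on log2(FPKM + 1) and log2(FPKM + 0.1), other filters and scalings, 1 fit of all 12 libraries, a replicate block, no fold limit, and each library left out. Positions are from the RefSeq table of Sscrofa11.1, the build the authors used, in which all 121 members were matched by gene ID. IL1B2 is on an unplaced sequence.

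Members and gene lists were chosen with earlier results of these data known. Named members are all those called in a comparison if 12 or fewer, otherwise the 10 with the smallest adjusted p per direction, the 15 with the highest mean FPKM, and listed ligand and receptor pairs. Members of pairs that were too low to test are given by their highest value. CXCR3 in Ha vs La, other members, and the measure of counts per FPKM were chosen after values were seen. Not every member that meets these rules is described. Totals ranged from 17165519 to 23758931 counts, so values near the floor carry counting error beyond the spread shown.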

Additional observations from a re-analysis of the deposited data

Results flagged for a closer look

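The interaction test of the main edgeR fit called a change with age that differed between breeds for 2 members. Each call was kept in only 3 of 12 fits with 1 library left out. For IL1R2 the change in LC boars exceeded that in HZ boars by 3.31 on the log2 scale (SE 0.85, adjusted p 0.0406). Levels were 0.54, 0.64 and 0.58 FPKM in La and 5, 2.92 and 0.68 in Lb, so Lb1 and Lb2 carry the rise, and 1.4, 1.54 and 0.61 FPKM in Ha and 0.58, 0.49 and 0.46 in Hb. For IL31RA the difference was 1.94 (SE 0.50, adjusted p 0.0406). Levels were 0.81, 1.06 and 0.94 FPKM in La and 4.98, 5.82 and 5.87 in Lb, without overlap, and 4.76, 5.88 and 2.24 FPKM in Ha and 2.95, 8.97 and 5.84 in Hb, with overlap. The part of cell makeup in either difference was not tested.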

How the results depend on the processing

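All members called in a comparison kept their direction under every alternative. Of the called members, 19 of 32 in Ha vs Hb, 23 of 43 in La vs Lb, 3 of 14 in Ha vs La (CXCL10, CXCL12 and IL31RA) and 0 of 2 in the interaction also stayed called under all of them. With limma on log2(FPKM + 1), 23 members were called in La vs Lb and 4 in Ha vs La, and the fit of all 12 libraries called 7 in Ha vs La. In Hb vs Lb, where the main edgeR fit called 0, the stricter filter, upper-quartile factors and library totals each gave 1. There DESeq2 gave 6, limma 3 with either pseudocount and the fit of all 12 libraries 11. The interaction gave 7 members with DESeq2, 1 with limma and the larger pseudocount (IL11RA, and neither IL1R2 nor IL31RA) and 5 with the smaller (0.1), and the cause was not tested.

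Leaving out 1 library gave 30 to 38 called members in Ha vs Hb, 42 to 49 in La vs Lb, 7 (without La1) to 16 in Ha vs La, with 8 without Ha2, and 0 to 4 (without Hb2) in Hb vs Lb, with 1 without Lb3. The interaction ranged from 0 (without Ha1, Ha2, Hb3, La1, La3, Lb1 or Lb2) to 7 (without Hb2), with 4 without Hb1 and 1 without La2 or Lb3. The median log2 fold change of all genes moved from -0.02 to -0.32 in Ha vs Hb and from 0.01 to -0.16 in La vs Lb with library totals alone, and to -0.34 and -0.25 with upper-quartile factors.

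With the replicate number as a replicate block, 30 members were called in Ha vs Hb, then 41 members in La vs Lb, 13 in Ha vs La, 0 in Hb vs Lb and 2 in the interaction. These were IL31RA and, in the lower direction, IL6R, whereas IL1R2 was not called. The correlation of deviations of equally numbered libraries was between 0.016 and 0.053 in Ha vs Hb, where every number correlated best with itself, and between -0.022 and 0.028 in the other comparisons, so the numbers were not taken as pairs.

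With 3 boars in a group, members near the filter had few counts, and a difference between boars of a group weighs on every test. For members with at most 3 counts per library, no RNA and too little RNA for this depth cannot be told apart. This holds also for IL17RC, listed at 0 throughout, for which an effect of the annotation was not tested.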
